A study of Rattus norvegicus with 3 samples.

Results

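The prostaglandin genes Ptgs1, Ptgs2, Ptgds, Ptger3 and Slco2a1 were followed on 3 rat expression arrays. Their probe sets were selected by symbol: every probe set that the platform annotation gives to 1 of these 5 symbols alone was read on every array. This gave 9 of the 7006 probe sets with a single symbol, for 5 of 4736 genes. Ptgs1 and Ptgds had 1 probe set each, Ptgs2 and Slco2a1 had 2 each and Ptger3 had 3. The gene set was chosen from earlier readings of these same arrays, in which Ptgs2 and Slco2a1 stood far from most genes, so every value below is a description with no test.

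The labels describe a time course in rats (Rattus norvegicus), with total RNA read on 3 arrays, 1 per time label, at 0.0 h, 0.1 h and 1.0 h. The sample titles number the 0.1 h array 1, the 0.0 h array 2 and the 1.0 h array 3, and whether 0.1 h is a true sampling time could not be settled, so differences are between arrays carrying these labels. All 3 samples carry the same source, pineal gland and adrenal medulla. The labels name no agent, strain, age, sex or number of animals, and do not say which organ a single sample came from. Of the 7 pinealocyte markers with a probe set, 6, 7 and 7 were above the floor defined below at 0.0 h, 0.1 h and 1.0 h, and of the 6 adrenal medulla markers 3 were above it on each array. Those 3 were Pnmt, which makes adrenaline, with 610.7, 657.4 and 514.3, and the neuroendocrine genes Chgb and Npy. The other 3, Th, Dbh and Slc18a1, which make and store catecholamines, were below the floor on every array.

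Prostaglandins are lipid messengers made from arachidonic acid, which phospholipases release from membranes. The prostaglandin H synthases, or cyclooxygenases, turn arachidonic acid into prostaglandin H, and terminal synthases make the single prostaglandins from it. Ptgs1 encodes the form that most tissues keep at a steady level, and Ptgs2 the form that many cells switch on within a short time of a stimulus, as an immediate early gene. Prostaglandins act on G protein-coupled receptors of neighbouring cells, and the carrier encoded by Slco2a1 takes them up from the extracellular space ahead of their breakdown.

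The deposited intensities had medians of 401.5, 430.2 and 457.6 at 0.0 h, 0.1 h and 1.0 h. Levels are given as scaled intensities, with the arrays brought to equal medians, and a probe set counted as measured on an array above a floor of 264.7, the 40th percentile of all values. Without replicate arrays no difference can be checked, and precision is limited by how few arrays there are. The only spread that could be measured was that between probe sets of 1 gene: over genes with 2 or more measured probe sets, their log2 differences had a pooled SD of 0.47 for 0.1 h over 0.0 h, 0.42 for 1.0 h over 0.0 h and 0.51 for 1.0 h over 0.1 h. It covers neither animals nor extractions. Of all measured genes, 5.69% were higher at 0.1 h than at 0.0 h by 2-fold or more, and 4.69% were lower by as much. Between 1.0 h and 0.0 h these shares were 2.35% and 2.61%, and for 1.0 h over 0.1 h 4.09% and 5.07%. Counted by probe set in either direction, 10.5%, 5.43% and 9.38% were at least 2-fold apart in the 3 comparisons. The split of these probe sets moved with the scaling. Of the 499 for 0.1 h over 0.0 h, 58.9% were higher, against 22.6% when the 9 spike-in probe sets were made equal. Between 1.0 h and 0.0 h the share was 52.9%, against 80.5% with equal spike-ins. Between 1.0 h and 0.1 h it was 41.4%, against 93% with equal spike-ins and 55.1% on the values as deposited. Equal spike-ins put the median of the measured probe sets at -0.26, 0.22 and 0.46 on the log2 scale in the 3 comparisons. Differences below are relative to the median of the probe sets above the floor on every array. As a sign of RNA integrity, the beta-actin probe sets had a 3' over 5' ratio of 10.4 at 0.0 h, 17.8 at 0.1 h and 44.4 at 1.0 h, and those of GAPDH 15.3, 18.6 and 14.1. On every array the 3' probe sets of both genes were thus far brighter than the 5' ones. The beta-actin ratio rose with the time label, while that of GAPDH did not. The part of RNA quality in the results was not tested.

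Of the 5 genes, read from the probe set with the highest mean level, 2 passed 2-fold between 0.1 h and 0.0 h, with Ptgs2 higher and Slco2a1 lower at 0.1 h. At 1.0 h against 0.0 h, Ptgs2 was again at least 2-fold higher and no member was 2-fold lower. Between 1.0 h and 0.1 h, Slco2a1 alone of the 5 was at least 2-fold apart, and was higher at 1.0 h. These counts rest on the values that led to the choice of the genes, so they carry no weight against the shares of all genes given above. Ptgs1, Ptgds and Ptger3 were under 2-fold apart in each of the 3 comparisons on their brightest probe sets. All 5 of those probe sets were above the floor on each array, 2 of the other 4 were above it on 2 arrays and 2 on 1 array.

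**Figure D1:**
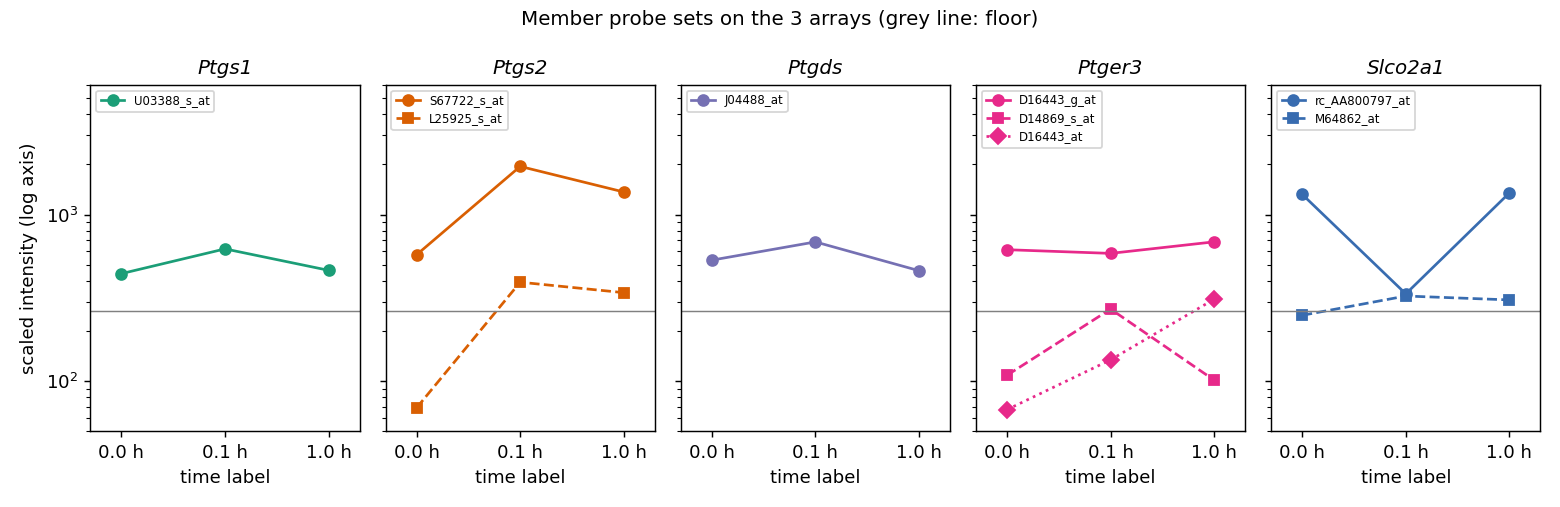
Scaled intensity (log axis) of the 9 probe sets of Ptgs1, Ptgs2, Ptgds, Ptger3 and Slco2a1 at the time labels 0.0 h, 0.1 h and 1.0 h, with 1 line per probe set, 1 array per point and no error bars; the grey line is the floor of 264.7. Both Ptgs2 probe sets are lowest at 0.0 h, while the brighter Slco2a1 probe set is low at 0.1 h and the dimmer one is not.

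Ptgs2 had scaled intensities of 573.5 at 0.0 h, 1945.3 at 0.1 h and 1365.7 at 1.0 h on its brighter probe set, S67722_s_at. The level was thus lowest on the 0.0 h array and highest on the 0.1 h array. It was 3.39-fold higher at 0.1 h than at 0.0 h, a log2 difference of 1.76, which placed Ptgs2 as gene 20 from the top of 2987 measured genes. It was 2.38-fold higher at 1.0 h than at 0.0 h, a log2 difference of 1.25, as gene 31 from the top of 3024. Both differences were larger than the SD between probe sets of 1 gene. Both share the 0.0 h array, so the low 0.0 h value enters each of them. At 1.0 h Ptgs2 was 1.42-fold lower than at 0.1 h, a log2 difference of -0.51, which equals the SD between probe sets. The order of the 0.1 h and 1.0 h arrays is therefore not resolved. Both lay above 0.0 h by more than that spread, which covers neither animals nor extractions. Without replicate arrays, the differences from 0.0 h cannot be checked either.

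The other Ptgs2 probe set, L25925_s_at, ran the same way. Its scaled intensities were 69.1, 392.5 and 339.6 at 0.0 h, 0.1 h and 1.0 h, with the 0.0 h array below the floor. Against the floor, it was at least 1.48-fold higher at 0.1 h than at 0.0 h, and for 1.0 h over 0.0 h the bound was 1.28-fold. Between 1.0 h and 0.1 h it was measured on both arrays, with a log2 difference of -0.21. Across all genes whose brightest probe set was at least 2-fold apart between 0.1 h and 0.0 h and that had another measured probe set, 29 of 77, or 37.7%, had another one at least 2-fold apart in the same direction, and 59 had all others on the same side of 0. For 1.0 h over 0.0 h, 10 of 40, or 25%, had such a second probe set. Ptgs2 is in neither count, since L25925_s_at was below the floor at 0.0 h.

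Ptgs1 differed far less than Ptgs2 on the same arrays. Its single probe set, U03388_s_at, had scaled intensities of 441.8 at 0.0 h, 621.9 at 0.1 h and 462.5 at 1.0 h, so the 0.1 h array was highest and the others were close together. It was 1.41-fold higher at 0.1 h than at 0.0 h, with a log2 difference of 0.49 against an SD between probe sets of 0.47. Under the 6 other settings of scaling and floor that could be read, it was below this SD, down to 0.22 with equal spike-ins. At 1.0 h against 0.0 h the log2 difference was 0.07, and it lay between -0.07 and 0.26 over 7 settings of scaling and floor, so its direction is not settled. At 1.0 h against 0.1 h it was -0.43, where equal spike-ins gave 0.04.

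The bases ahead of the start of the inducible and of the steady synthase gene are shown because the 2 genes differed unequally between these arrays while encoding enzymes of the same reaction. Both are the 250 bases before the RefSeq start in GRCr8, on the plus strand, Ptgs2 from chr13:64713813-64714062 and Ptgs1 from chr3:39981169-39981418. Capitals mark matches, on either strand, to 7 motifs: the cyclic AMP response element (TGACGTCA), its core (TGACG), the E-box (CACGTG), the SP1 GC box (GGGCGG), the AP-1 site (TGANTCA), the CCAAT box (CCAAT) and the TATA box (TATAAA). A full response element holds 2 overlapping cores.
Ptgs2: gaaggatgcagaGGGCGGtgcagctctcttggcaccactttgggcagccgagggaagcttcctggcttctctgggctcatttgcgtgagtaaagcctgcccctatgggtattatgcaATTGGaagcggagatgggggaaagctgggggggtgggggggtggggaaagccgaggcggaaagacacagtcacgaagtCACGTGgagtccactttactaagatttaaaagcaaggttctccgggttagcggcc
Ptgs1: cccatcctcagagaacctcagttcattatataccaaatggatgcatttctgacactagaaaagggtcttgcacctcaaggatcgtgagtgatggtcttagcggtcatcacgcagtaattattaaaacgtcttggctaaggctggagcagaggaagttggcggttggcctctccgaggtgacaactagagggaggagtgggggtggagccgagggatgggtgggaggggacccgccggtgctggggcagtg
The Ptgs2 stretch held 3 matches: a GC box at bases 238 to 233 before the start, a CCAAT box on the minus strand at 133 to 129 and an E-box at 55 to 50. Among 27457 RefSeq promoter windows of the same 250 bases, 5.79% held the E-box, 34.3% the CCAAT box and 32.4% the GC box. The E-box close to the start of the rat Ptgs2 gene is known as a binding site of the USF factors in ovarian granulosa cells. The Ptgs1 stretch held none of the 7 motifs, which says only that these letters are not in this window. The full response element was in 1.7% of windows and its core in 19%, the AP-1 site in 6.36% and the TATA box in 13.1%. Of the 5 genes, 4 had a GC box, all but Ptgs1, and none had the response element, its core or the AP-1 site. The median window held 52.0% G and C. The Ptgs1 window held 54.4%, and those with a GC box ran from 57.2% for Ptgs2 to 68.4% for Ptger3. The part of base content in the GC box matches was not tested.

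Ptgds encodes the lipocalin-type prostaglandin D synthase, which in the brain is made mainly by the leptomeninges, the choroid plexus and oligodendrocytes, and is also a carrier of small lipophilic molecules in cerebrospinal fluid. Its probe set J04488_at had scaled intensities of 532.3 at 0.0 h, 685.0 at 0.1 h and 460.2 at 1.0 h. The 3 values stayed within a narrow band, with 0.1 h highest and 1.0 h lowest. The log2 difference was 0.36 for 0.1 h over 0.0 h and -0.21 for 1.0 h over 0.0 h, both under the SD between probe sets. For 1.0 h over 0.1 h it was -0.57 against an SD of 0.51, where equal spike-ins gave -0.10.

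Markers of the cells that make this enzyme were read on the same arrays. The leptomeningeal and fibroblast list had 10, 9 and 9 of 10 genes above the floor at 0.0 h, 0.1 h and 1.0 h, with summed levels of 70362, 64461 and 75155. Most of each sum came from Col1a2 and Mgp. Col1a2 had 25565.7, 12186 and 23013.8 and was lowest at 0.1 h, while Mgp had 26189.3, 31427.4 and 28885.6 and was highest there. The oligodendrocyte and Schwann cell list had 3 of 6 above the floor on each array, with summed levels of 7072, 7594 and 6153. Those 3 were Mag with 856.5, 1382.5 and 1078.5, Cnp with 823.0, 889.4 and 1010.7, and Pmp22 with 5069.3, 4930.7 and 3580.9. Mag, like Ptgds, was highest at 0.1 h. Mbp, Mog and Mobp were below the floor on every array. The choroid plexus list had 3 of 4 above the floor on each array, with summed levels of 43549, 44107 and 41548, most of which was Ttr, the transthyretin gene, with 41434.1, 40228.8 and 39534.5. Enpp2, the autotaxin gene, was more than 2-fold higher at 0.1 h than at 0.0 h, with 1548.8, 3318.7 and 1578.6, so like Ptgds it was highest at 0.1 h. Kl, the klotho gene, had 412.9, 310.5 and 155.8, the last below the floor. In bulk RNA, fewer cells of a type and less RNA per cell cannot be told apart, and the part of these cells in the Ptgds values was not tested.

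Ptger3 encodes the EP3 receptor for prostaglandin E2, which couples mainly to inhibitory G proteins and lowers cyclic AMP. Its brightest probe set, D16443_g_at, had scaled intensities of 615.1 at 0.0 h, 584.5 at 0.1 h and 685.7 at 1.0 h. The 3 levels were within 1.17-fold of each other, and on this scale no pair differed by more than the SD between probe sets. The log2 differences were -0.07 for 0.1 h over 0.0 h, 0.16 for 1.0 h over 0.0 h and 0.23 for 1.0 h over 0.1 h, where equal spike-ins gave 0.70. The other 2 probe sets were below the floor on 2 arrays each, so their patterns could not be read. D14869_s_at had 108.4, 270.7 and 101.3, with only 0.1 h above the floor. D16443_at, which is designed on the same sequence record as the brightest one, had 67.4, 134.2 and 310.4, with only 1.0 h above the floor. Against the floor, D14869_s_at was at least 1.02-fold higher at 0.1 h, and D16443_at at least 1.17-fold higher at 1.0 h, than on the other arrays.

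**Figure D2:**
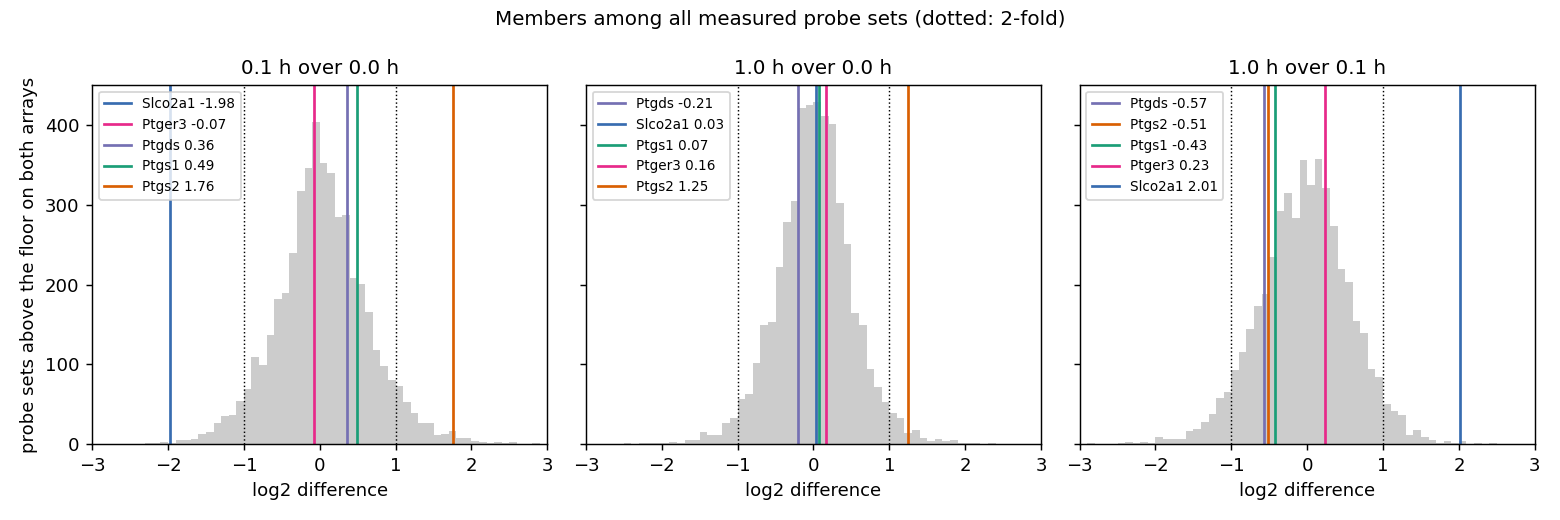
Histograms of the log2 difference of every probe set measured on both arrays, for 0.1 h over 0.0 h, 1.0 h over 0.0 h and 1.0 h over 0.1 h, with a coloured line for the brightest probe set of each of the 5 genes and dotted lines at 2-fold; the vertical axis counts probe sets. Ptgs2 lies in the upper tail of both comparisons with 0.0 h, Slco2a1 in the lower tail for 0.1 h over 0.0 h and the upper tail for 1.0 h over 0.1 h, and the other lines lie inside 2-fold.

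Slco2a1 encodes the prostaglandin transporter, an organic anion carrier with high levels in endothelium. It stood apart on the 0.1 h array on its brighter probe set, rc_AA800797_at, with scaled intensities of 1321.9 at 0.0 h, 334.0 at 0.1 h and 1349.3 at 1.0 h. The outer arrays were nearly equal, with a log2 difference of 0.03 for 1.0 h over 0.0 h. At 0.1 h the level was 3.96-fold lower than at 0.0 h, a log2 difference of -1.98, as gene 5 from the bottom of 2987. At 1.0 h it was 4.04-fold higher than at 0.1 h, a log2 difference of 2.01, as gene 4 from the top of 3035. Both differences use the same 0.1 h value.

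The other Slco2a1 probe set, M64862_at, named for the record of the rat matrin F/G cDNA under which this transporter was first cloned, had no low value at 0.1 h. Its scaled intensities were 248.3, 324.2 and 307.2, with 0.0 h just below the floor. It was at least 1.22-fold higher at 0.1 h than at 0.0 h, and its log2 difference for 1.0 h over 0.1 h was -0.08. The low 0.1 h value of the brighter probe set was thus not seen on M64862_at. However, M64862_at lay close to the floor of 264.7 on every array. A fall of that size could not be measured as a fold there, and would have appeared only as a value below the floor. The recorded 0.1 h value of M64862_at, 324.2, was instead above the floor and the highest on that probe set. Its difference of -0.08 was also far smaller than the SD between probe sets of 0.51. The brighter probe set, with 334.0 at 0.1 h, was itself close to the floor on that array. Averaging them, with the 0.0 h value below the floor included, gave -0.80 for 0.1 h over 0.0 h and 0.97 for 1.0 h over 0.1 h, both under 2-fold. Across all genes whose brightest probe set was 2-fold apart for 1.0 h over 0.1 h and that had another measured one, few had agreement in size. Another probe set was at least 2-fold apart in the same direction in 11 of 67, or 16.4%, and all others were on the same side of 0 in 71.6%. The bases ahead of the gene are shown for comparison with Ptgs2, since the log2 differences of the 2 genes for 0.1 h over 0.0 h have opposite signs. They come from chr8:112467489-112467738 of GRCr8, plus strand, with the same motifs in capitals.
Slco2a1: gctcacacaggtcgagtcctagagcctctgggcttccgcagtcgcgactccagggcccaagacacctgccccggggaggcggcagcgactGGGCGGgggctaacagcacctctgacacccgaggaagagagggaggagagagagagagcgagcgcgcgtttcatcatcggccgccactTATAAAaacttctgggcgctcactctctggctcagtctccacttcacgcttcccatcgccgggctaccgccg
They held a GC box at bases 160 to 155 before the start and a TATA box at 72 to 67, and no E-box.

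The brighter Slco2a1 probe set is one of those whose names start with rc_, which were designed from expressed sequence tags, single reads of cDNA clones. Probe sets of this kind were unevenly spread among those that set the 0.1 h array apart. Of 4567 probe sets measured on each array, 2125, or 46.5%, had such names. Of the 97 that were at least 2-fold lower at 0.1 h than on both other arrays, 85 had them, or 87.6%. Of the 92 that were at least 2-fold higher at 0.1 h than on both others, 24 had them, or 26.1%. Among probe sets that set 0.0 h or 1.0 h apart, the shares ran between 37.5% and 62.9%. The 6 genes within 0.2 log2 of the Slco2a1 pattern on every array were all read from such probe sets. This comparison was added after the values had been seen, and the part of probe set design in the Slco2a1 value was not tested.

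**Figure D3:**
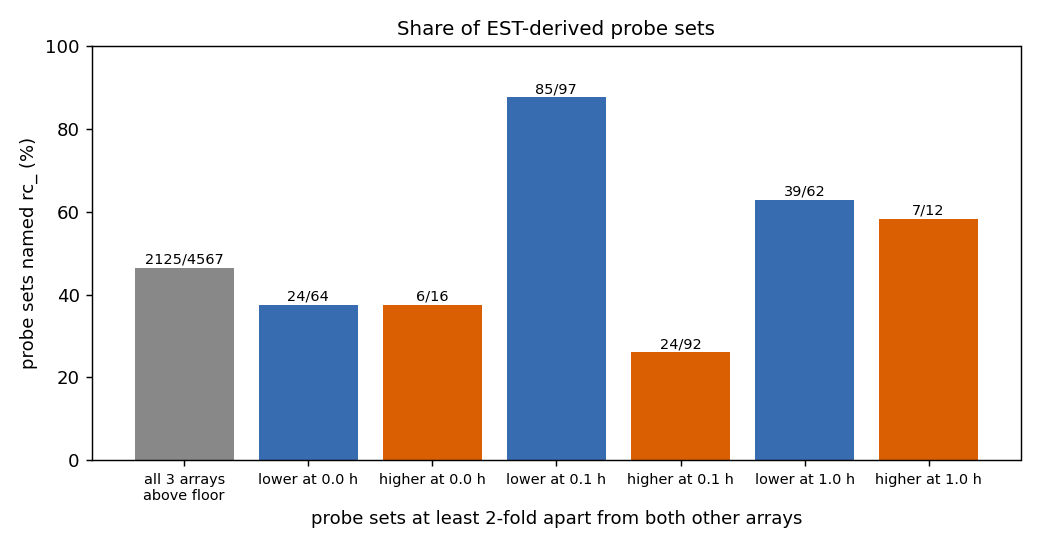
Share of probe sets with names starting rc_ (vertical axis, percent, from 0) among the 4567 probe sets measured on each array (grey) and among those at least 2-fold lower (blue) or higher (orange) on 1 array than on both others; the numbers over the bars are counts. The bar for probe sets low at 0.1 h alone stands at 87.6%, against 46.5% for all.

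Endothelial markers were read beside Slco2a1. Of the 6 with a probe set, 4, 2 and 3 were above the floor at 0.0 h, 0.1 h and 1.0 h, with summed levels of 3429, 2503 and 3312. Pecam1, an adhesion molecule of endothelial junctions, had 455.8, 156.7 and 416.9, and thus was also low at 0.1 h alone, where it was below the floor. Vwf, the clotting factor gene of endothelium, had 449.9, 138.0 and 77.7, with only 0.0 h above the floor. Cav1 and Icam2 were below the floor on every array. Kdr and Flt1, receptors for vascular endothelial growth factor, were above the floor throughout, with 1489.2, 1227.6 and 1277.4 for Kdr and 792.5, 661.8 and 1245.4 for Flt1. The part of endothelial RNA in the Slco2a1 value was not tested. Leukocytes can make Ptgs2, and of their 9 markers with a probe set 6, 6 and 7 were above the floor at 0.0 h, 0.1 h and 1.0 h, with summed levels of 5038, 6532 and 6668. Their median log2 difference was 0.30 over 5 measured genes for 0.1 h over 0.0 h and 0.40 over 6 for 1.0 h over 0.0 h. Ptprc, the pan-leukocyte CD45 gene, had 285.5, 722.7 and 503.4, in the order of Ptgs2 over the arrays, and was the 1 marker at least 2-fold higher at 0.1 h than at 0.0 h. Aif1, a macrophage gene, had 184.2, 428.0 and 471.5, with 0.0 h below the floor. Cd14, with 1616.3, 2534.6 and 1886.1, and C1qb, with 1115.0, 1371.0 and 1892.2, were also lowest at 0.0 h. Cd74, Fcgr2b and Cd53 went the other way and were lowest at 0.1 h. They had 541.6, 400.7 and 806.8 for Cd74, 630.9, 563.2 and 670.3 for Fcgr2b, and 349.2, 248.1 and 274.7 for Cd53. The 0.1 h value of Cd53 was below the floor. Itgam and Csf1r were below the floor on every array. The part of leukocyte RNA in the Ptgs2 value was not tested.

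Genes with the most similar pattern were sought among 2907 other genes measured on each array, by the largest gap between log2 values centred on each gene's mean over the 3 arrays. Nearest to Ptgs2 were Cyp51, a demethylase of cholesterol synthesis, with a largest gap of 0.049, and Pop1, a subunit of RNase P and MRP, and the immediate early transcription factor gene Egr1, both with 0.079. Egr1 had scaled intensities of 38024.8 at 0.0 h, 124548.8 at 0.1 h and 96582.0 at 1.0 h, so like Ptgs2 it was lowest at 0.0 h and highest at 0.1 h. Cyp51 had 2077.6, 6624.6 and 4750.2, in the same order. In all, 13 genes, or 0.45%, lay within 0.2 log2 of Ptgs2 on every array. Nearest to Slco2a1 were Tbc1d2b with a gap of 0.074, Ubac2 with 0.077 and the silencing factor gene Tnrc6b with 0.137, and 0.21% of genes lay within 0.2 log2. The patterns of the other members were more common: 13.38% of genes lay within 0.2 log2 of Ptgs1, led by Rdh7, Dhcr7 and Mtarc2, 12.11% of Ptgds, led by Lyn, Phb2 and Cdh22, and 22.94% of Ptger3, led by Pemt, LOC102549032 and Bdkrb1. With 3 arrays a near match needs only 2 independent differences to be alike.

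The rest of the pathway was read from a list of 64 genes of prostaglandin and related eicosanoid metabolism, of which 40 had a probe set and 8 of these were below the floor on every array on the probe set read. Without the 5 members, 20 genes were measured for 0.1 h over 0.0 h, with Ptgfr past 2-fold upward, Ephx2 past it downward and a median log2 difference of 0.25, against 0 over all genes. For 1.0 h over 0.0 h, 18 were measured, with 2 at least 2-fold higher, none 2-fold lower and a median of 0.02, against 0.01 over all genes. For 1.0 h over 0.1 h, 20 were measured, with 1 at least 2-fold higher, none 2-fold lower and a median of -0.22, against 0 over all genes. Over all measured genes, 5.69% were at least 2-fold higher and 4.69% lower for 0.1 h over 0.0 h. The shares were 2.35% and 2.61% for 1.0 h over 0.0 h, and 4.09% and 5.07% for 1.0 h over 0.1 h. With so few list genes past 2-fold, the counts are not read as a result about the list. Both comparisons that use the 0.1 h array share its value.

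Among the phospholipases that release arachidonic acid, Pla2g2a, the secreted group IIA enzyme, had scaled intensities of 270.4 at 0.0 h, 489.6 at 0.1 h and 571.1 at 1.0 h, the first just above the floor. It was 2.11-fold higher at 1.0 h than at 0.0 h and 1.81-fold higher at 0.1 h than at 0.0 h. Anxa1, the annexin that inhibits phospholipase A2, had 11655.3, 10669.3 and 10205.5, which are within 1.14-fold. Its other probe set, S57478cds_s_at, had 1587.7, 1319.6 and 1852.5, with a log2 difference of 0.22 for 1.0 h over 0.0 h, where the brighter one had -0.19, and was 1.40-fold higher at 1.0 h than at 0.1 h. Of the terminal synthases, Ptgis, which makes prostacyclin, had 1201.5, 2333.9 and 1298.3 and was highest at 0.1 h alone. It was 1.94-fold higher at 0.1 h than at 0.0 h, under the 2-fold line. Ptgr1, which reduces prostaglandins and leukotriene B4, had 23098.6, 27472.8 and 16993.7, with a largest fold of 1.62 between 1.0 h, the lower, and 0.1 h.

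Of the 9 prostanoid receptor genes of the list, 7 had a probe set, and Ptger1, Ptger2 and Ptger4 were below the floor on every array. Ptgfr, the receptor for prostaglandin F2 alpha, passed 2-fold upward against 0.0 h at both 0.1 h and 1.0 h on its brightest probe set. That probe set had scaled intensities of 315.3 at 0.0 h, 766.0 at 0.1 h and 690.7 at 1.0 h, giving 2.43-fold for 0.1 h over 0.0 h and 2.19-fold for 1.0 h over 0.0 h. Its order over the arrays was that of Ptgs2. The 0.0 h value of Ptgfr was close to the floor of 264.7, and its other 2 probe sets were below the floor on every array. Ptgir, the prostacyclin receptor, had 897.4, 1434.8 and 896.9 and was highest at 0.1 h, 1.60-fold above 0.0 h. Tbxa2r, the thromboxane receptor, had 1262.0, 1019.8 and 709.8 on its brightest probe set. It was highest at 0.0 h and lowest at 1.0 h, 1.78-fold below 0.0 h. Ptgfrn, a membrane partner of the prostaglandin F2 alpha receptor, had 1235.6, 631.1 and 1010.8 and was lowest at 0.1 h, 1.96-fold below 0.0 h.

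**Figure D4:**
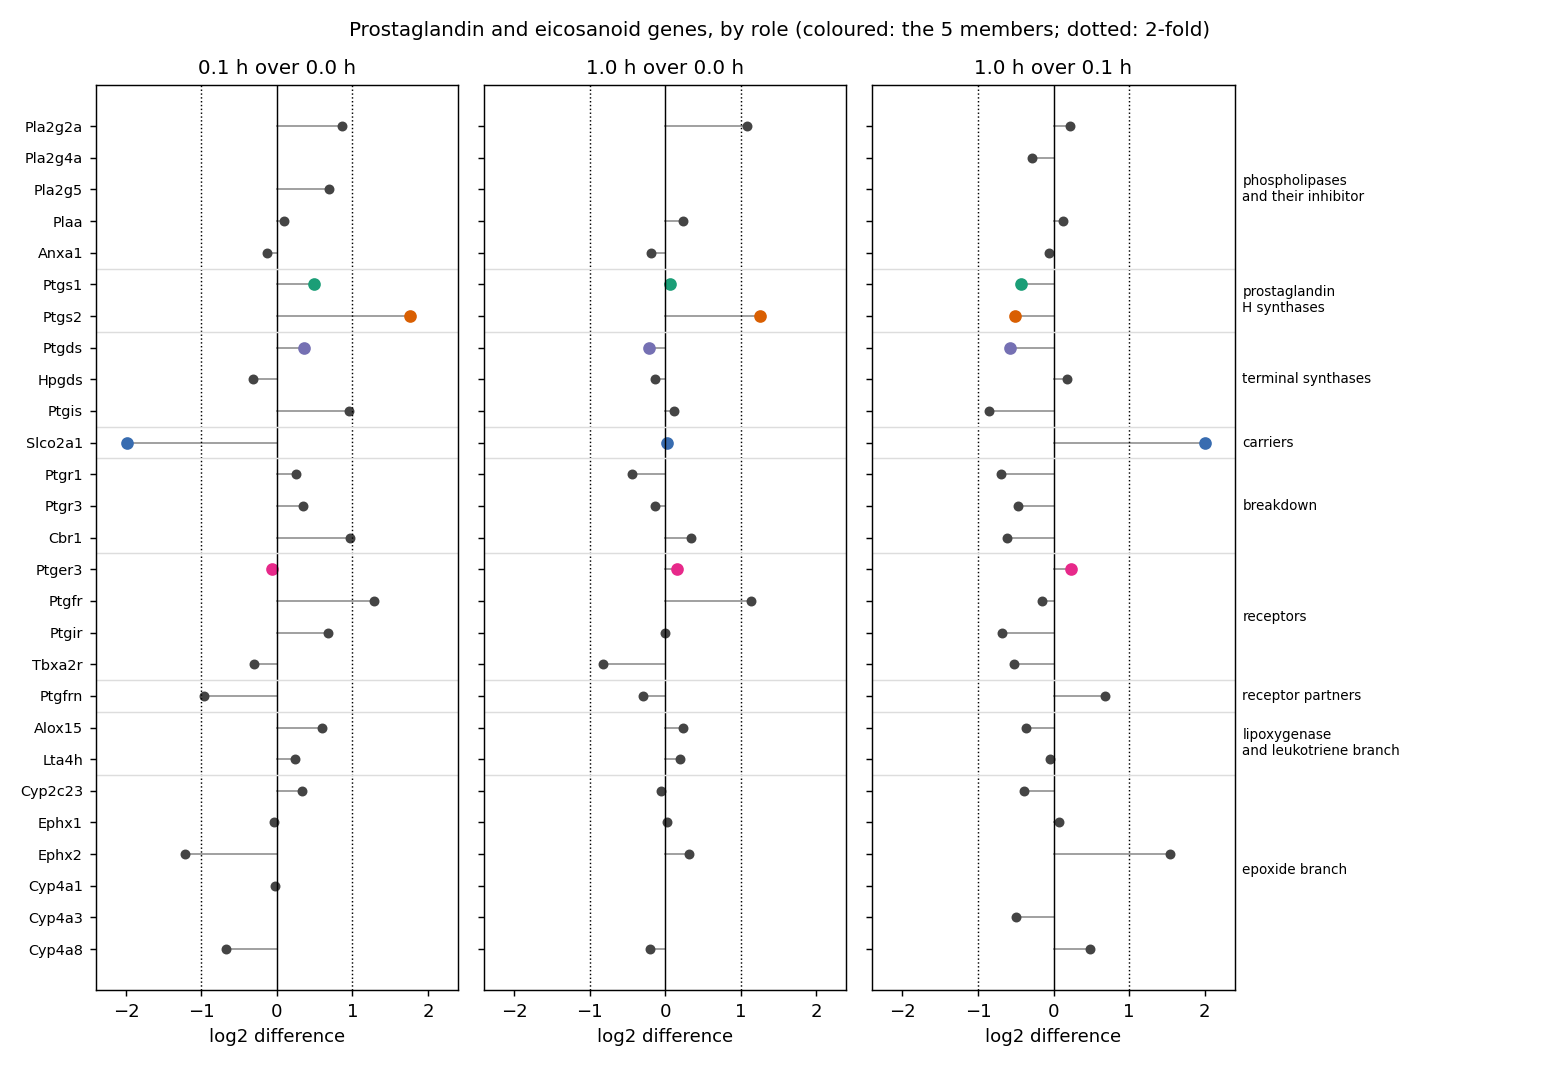
Log2 difference (horizontal axis) of each measured gene of the prostaglandin and eicosanoid list, grouped by role down the page, for 0.1 h over 0.0 h, 1.0 h over 0.0 h and 1.0 h over 0.1 h; each point is 1 gene on its brightest probe set, coloured for the 5 members, with dotted lines at 2-fold. For 0.1 h over 0.0 h, Ptgs2 at 1.76 and Ptgfr at 1.28 lie past 2-fold on the right, and Slco2a1 at -1.98 and Ephx2 at -1.22 on the left.

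The member differences were recomputed under other scalings, floors and readings of a gene. Over the settings that keep the brightest probe set, Ptgs2 lay between 1.49 and 1.76 on the log2 scale for 0.1 h over 0.0 h and between 1.12 and 1.45 for 1.0 h over 0.0 h. Slco2a1 lay between -2.26 and -1.98 for 0.1 h over 0.0 h and between 2.01 and 2.49 for 1.0 h over 0.1 h. These ranges are narrower than the gap between the 2 Slco2a1 probe sets, whose log2 differences for 1.0 h over 0.1 h were 2.01 and -0.08.

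**Figure D5:**
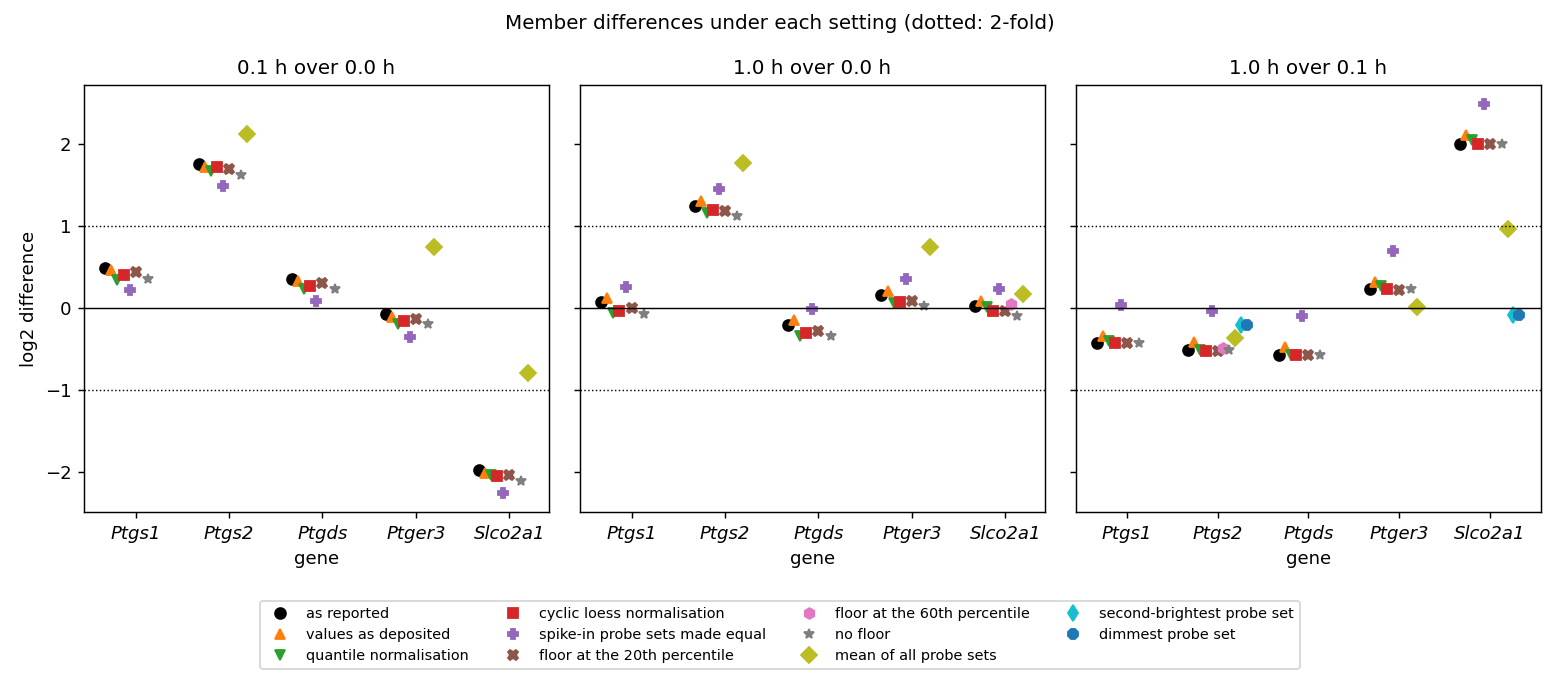
Log2 difference (vertical axis) of each of the 5 genes under each scaling, floor and reading of the gene, in 1 panel per comparison; black circles are the values as reported, other symbols are named in the key, and dotted lines mark 2-fold. The Ptgs2 points stay above 2-fold in both comparisons with 0.0 h, while the Slco2a1 points for 1.0 h over 0.1 h run from -0.08 to 2.49.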

How the data were processed

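The authors deposited 1 linear intensity per probe set for each of 3 arrays. How they were summarised and background-corrected is not given in the sources used here. Deposited intensity values had means of 2503.7, 2503.9 and 2503.7 without the highest and lowest 2%, so they had been scaled before deposit. Of 8799 probe sets, 59 controls were left out. The platform annotation gave 1 symbol for 7006 probe sets, several for 308 and none for 1426. Gene IDs of 6985 matched RefSeq (GRCr8), with 0 symbols changed.

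Values were taken to log2, array medians made equal, and a floor set at the 40th percentile. A second shift gave the arrays equal medians over the probe sets that passed this floor everywhere. Differences needed both arrays above the floor, and "at least" folds are against the floor. A gene was read from its brightest probe set. With 1 array per label there was no test. The reading was tested on simulated data with 200 changed probe sets. Those were all well above the floor, and the simulated noise was smaller than the spread between probe sets measured here. The simulation therefore does not cover values near the floor or the spread of these arrays. Python 3.11.15, pandas 2.3.3 and limma 3.58.1 in R 4.3.3 were used. Members, lists and alternatives were chosen with earlier results of these data known. Named genes were the members, list genes at least 2-fold apart, the brightest measured gene of each main role and the 3 nearest patterns per member. Tbxa2r was added so that every measured receptor was given. Promoter bases are RefSeq's, with 5 of 5 members matched by symbol.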

Additional observations from a re-analysis of the deposited data

How the results depend on the processing

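No paired analysis was possible because each time label has 1 array. A member difference was taken to have moved when it changed by more than the SD between probe sets of 1 gene. By this measure 98 of 105 recomputed member differences kept their value. Most of these re-read the brightest probe set under another scaling or floor. The spike-ins differed by 0.27 for 0.1 h over 0.0 h, -0.2 for 1.0 h over 0.0 h and -0.47 for 1.0 h over 0.1 h. Each is smaller in size than its SD of 0.47, 0.42 or 0.51, so making them equal could not count as a move. The 5 that moved and the 2 that changed sign all came from readings that take in other probe sets. Averaging all probe sets of a gene gave, for 0.1 h over 0.0 h, 0.75 for Ptger3 and -0.80 for Slco2a1, for 1.0 h over 0.0 h, 1.77 for Ptgs2 and 0.75 for Ptger3, and for 1.0 h over 0.1 h, 0.97 for Slco2a1. The dimmer probe set of Slco2a1, close to the floor on every array, changed the sign of the last difference, to -0.08. It did so both as the second-brightest and as the dimmest. The averages take in values below the floor, and the cause of the disagreement between probe sets was not tested. Under the higher floor only Slco2a1 for 1.0 h over 0.0 h and Ptgs2 for 1.0 h over 0.1 h could be read.

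Counts moved with the floor. A lower floor measured more probe sets, and with no floor 8740 were read for 0.1 h over 0.0 h, against 4730. The called number grew by more than this, and the cause was not tested. In the order 0.1 h over 0.0 h, 1.0 h over 0.0 h, 1.0 h over 0.1 h, probe sets at least 2-fold apart numbered 499, 259 and 452. A floor at the 20th percentile gave 1014, 719 and 963, one at the 60th gave 301, 127 and 269, and no floor gave 2164, 1843 and 2075. Equal spike-ins gave 856 for 1.0 h over 0.1 h. Pathway list genes at least 2-fold apart numbered 8, 8 and 5 under the 20th percentile, 1, 0 and 1 under the 60th, and 11, 10 and 8 with none. On the second-brightest probe set they numbered 2 for 0.1 h over 0.0 h and 1 for 1.0 h over 0.0 h. On the dimmest probe set they numbered 1 for 0.1 h over 0.0 h and 1 for 1.0 h over 0.1 h, and averaged probe sets gave 0 for 1.0 h over 0.1 h. The list medians moved by less than the SD between probe sets under each alternative, but their sign changed under some, such as equal spike-ins, which gave -0.02 for 0.1 h over 0.0 h and 0.18 for 1.0 h over 0.1 h.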

Other observations

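Arachidonic acid also feeds the lipoxygenase and epoxide branches, whose genes were read on the same arrays. Alox15, the 12/15-lipoxygenase gene, was above the floor on both of its probe sets and highest at 0.1 h on each. S69383_at had scaled intensities of 43913.8 at 0.0 h, 66669.2 at 0.1 h and 51602.8 at 1.0 h, and L06040_s_at had 6802.3, 30271.3 and 14646.7. The probe sets shared a direction and differed in size: for 0.1 h over 0.0 h the log2 difference was 0.60 on the first and 2.15 on the second, and for 1.0 h over 0.0 h it was 0.23 and 1.11. Alox5 and Alox5ap, which start leukotriene synthesis, were below the floor on every array.

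Ephx2, the soluble epoxide hydrolase that breaks down epoxides of arachidonic acid, was low at 0.1 h alone on 2 of its 4 probe sets. X60328_at had 2632.6, 1127.1 and 3267.5, and X60328_g_at, from the same sequence record, had 1671.2, 721.1 and 1542.6. The probe set rc_AI104882_s_at, derived from an expressed sequence tag, had 825.5, 1155.9 and 1282.8 and was lowest at 0.0 h. The low level at 0.1 h was thus seen on the 2 probe sets of the same sequence record and not on that of the tag. The fourth probe set was below the floor on every array.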
